A study of Homo sapiens with 64 samples.

Results

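The cyclin D, CDK4/6 and RB family genes form the gate between G1 and S phase, and 10 of them were described here out of 54127 genes in each count file: the D-type cyclins CCND1, CCND2 and CCND3, the kinases CDK4 and CDK6, the pocket proteins RB1, RBL1 (p107) and RBL2 (p130), and the transcription factors E2F4 and E2F5. They were chosen by symbol, matched to the Ensembl identifiers of the files, and all 10 passed the filter on low counts in every comparison (at least 10 counts in at least 4 samples). As background, D-type cyclins bind CDK4 or CDK6 and the active kinase phosphorylates the pocket proteins, which releases E2F factors to switch on genes of DNA replication. RB1 mainly holds the activating E2Fs, whereas RBL1 and RBL2 bind E2F4 and E2F5 and repress. RBL2 with E2F4 and the MuvB proteins forms the DREAM complex of quiescent cells, and RBL1 is itself known as an E2F target gene.

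The study asked how dormant colorectal cancer cells differ from cycling ones. The lines HT55, SW948, RKO, SW48, DLD1 and HCT15 were labeled with CFSE, which daughter cells share out so that dividing cells grow dim, and were kept for 6 days as nonadherent spheroids with bFGF and EGF. From each line, RNA was sequenced from 4 replicates of label-retaining cells (LRCs, CFSE high) and 4 of the non-LRCs (the bulk of the cells), which makes 48 sorted samples. The 16 controls were bulk DLD1 cells, CFSE-labeled or unlabeled, from day 1 or from a later day, with 4 replicates each. The later day is day 5 in the sample labels and day 6 in the series text. All groups are established lines in spheroid culture, and the label-retaining gate is defined by the dye and not by a cell cycle marker. The methods call the replicates biological but do not say whether each was a separate culture, and the p-values measure the spread between these samples.

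Between 12237225 and 20913455 reads per sample fell on genes, with a median of 15063858. The summed level of 8 colorectal epithelium markers was 219 to 334 CPM (read counts scaled to library size by TMM and to a common total) in the RKO samples and 2704 to 17341 CPM in all others, so the epithelial markers were low in the samples labeled RKO. Of 6 measured markers of immune, fibroblast and endothelial cells, CD3E was at 0 in all 64 samples. PTPRC reached 7.5 to 22.3 CPM in SW48 and at most 0.0675 CPM elsewhere, and the macrophage-associated CD68 was at 1000 to 1617 CPM in RKO. The sum of these markers ranged from 7.71 to 1618 CPM in LRCs and from 4.55 to 1143 CPM in non-LRCs, and their part in the results below was not tested. In bulk samples, fewer cells with a transcript and less of it per cell cannot be told apart.

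Because RBL1 is described below beside the S-phase genes, the bases before its start site are shown first, with those of MCM3 and POLA1, the replication genes with the smallest p-values among the E2F targets. Capitals mark the E2F letters searched (TTTCGCGC, TTTGGCGC, TTTCCCGC and TTTGCCGC, on both strands). The sequences are the 250 bases before the start site on the strand of the gene, from RefSeq on GRCh38.p14. They lie at chr20:37095998-37096247 on the minus strand for RBL1, at chr6:52284743-52284992 on the minus strand for MCM3 and at chrX:24693668-24693917 on the plus strand for POLA1.
RBL1: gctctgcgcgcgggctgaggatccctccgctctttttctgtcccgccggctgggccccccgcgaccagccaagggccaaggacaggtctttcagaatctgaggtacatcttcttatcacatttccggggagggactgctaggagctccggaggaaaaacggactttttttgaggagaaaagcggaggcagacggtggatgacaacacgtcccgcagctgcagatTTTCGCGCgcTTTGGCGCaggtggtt
MCM3: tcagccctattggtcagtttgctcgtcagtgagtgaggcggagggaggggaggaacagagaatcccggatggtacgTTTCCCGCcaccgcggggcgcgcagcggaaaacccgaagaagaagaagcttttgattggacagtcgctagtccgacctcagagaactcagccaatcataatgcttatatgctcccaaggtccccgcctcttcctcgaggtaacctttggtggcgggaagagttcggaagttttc
POLA1: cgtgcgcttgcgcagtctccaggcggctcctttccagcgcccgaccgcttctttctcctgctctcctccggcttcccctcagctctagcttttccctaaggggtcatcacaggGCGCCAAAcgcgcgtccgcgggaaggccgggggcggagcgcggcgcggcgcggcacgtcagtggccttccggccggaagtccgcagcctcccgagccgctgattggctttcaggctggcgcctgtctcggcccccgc

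The RBL1 window held 2 matches, TTTCGCGC starting at base -26 and TTTGGCGC at base -16, both on the strand of the gene. MCM3 held TTTCCCGC from base -174 and POLA1 held TTTGGCGC on the opposite strand from base -137. RefSeq windows of 250 bases before and 50 after the start site were found for 7 of the 10 members, with 11 start sites in all. CCND1, CCND2 and E2F5 had no entry. RBL1 was the only one of the 7 with an E2F match, in 1 of the 11 windows, beside 3.31% of all 35116 windows. Counted by gene, 9 of the 14 S-phase target genes with a window had a match. That list was chosen as E2F targets, and no share by gene was computed for all genes. The CHR letters TTTGAA and TTCGAA, known from promoters of mitotic genes, occurred in 1 RBL2 window (TTTGAA at base 25) and in 16.4% of all windows. A match is a description of letters and not evidence of binding.

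The genes lie at these GRCh37 positions: CCND1 at chr11:69455924-69469242, CCND2 at chr12:4378937-4414519, CCND3 at chr6:41902672-42018095, CDK4 at chr12:58141510-58149796, CDK6 at chr7:92234235-92465887, RB1 at chr13:48877880-49173572, RBL1 at chr20:35624752-35724400, RBL2 at chr16:53467889-53525560, E2F4 at chr16:67226058-67232821 and E2F5 at chr8:86089389-86129387. The exons of CDK4 share 44.2% of their bases with TSPAN31 on the opposite strand. The overlap was 16.5% for E2F5 with RBIS, 10.4% for CCND1 with LTO1 and 7.51% for RBL2 with AKTIP. Whether the counting used strand was not stated, so reads in these stretches may belong to either gene or may have been set aside as ambiguous.

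Levels of different genes were compared as CPM per kilobase of exon (RPKM). In non-LRCs, CCND1 and CDK4 were the most abundant members. CCND1 averaged 40.9 RPKM in SW948 to 139 RPKM in DLD1, and CDK4 averaged 46.6 RPKM in HT55 to 118 RPKM in RKO. E2F4 followed with line means of 16.2 to 33.7 RPKM, and the pocket proteins RBL2 and RB1 with 8.87 to 18.4 and 6.54 to 18.9 RPKM. RBL1 (2.42 to 6.03 RPKM) and E2F5 (3.15 to 5.67 RPKM) were the low members of their families in every line. CCND2 had the widest span, from 0.151 RPKM in DLD1 to 25.1 RPKM in RKO.

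The make-up of each family differed by line. CCND1 gave 97% ± 0.219 (SD, n = 4) of the summed RPKM of the D-type cyclins in DLD1 non-LRCs, 91.9% ± 0.436 in HCT15 and 89% ± 5.01 in HT55. In RKO it gave 62.5% ± 1.84, with CCND2 at 24.3% ± 1.51 and CCND3 at 13.2% ± 1.26. CDK6 gave 20.4% ± 3.89 of the summed kinase level in HT55 and 13.8% ± 1.39 in SW948, against 2.26% ± 0.432 in RKO. These shares depend on the exon lengths used, 12239 bases for CDK6 and 3094 for CDK4. In HT55 non-LRCs both genes averaged 144 CPM. The CDK4 share also depends on how reads in its overlap with TSPAN31 were counted. Among the pocket proteins RBL2 was the main transcript in SW48 (59% ± 3.19) and DLD1 (57.7% ± 2.67), and RB1 in SW948 (54.8% ± 1.41). RBL1 reached its highest share, 24.3% ± 1.2, in RKO. E2F4 gave 79.9% ± 2.53 to 87.9% ± 2.77 of the E2F4 and E2F5 level.

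**Figure D1:**
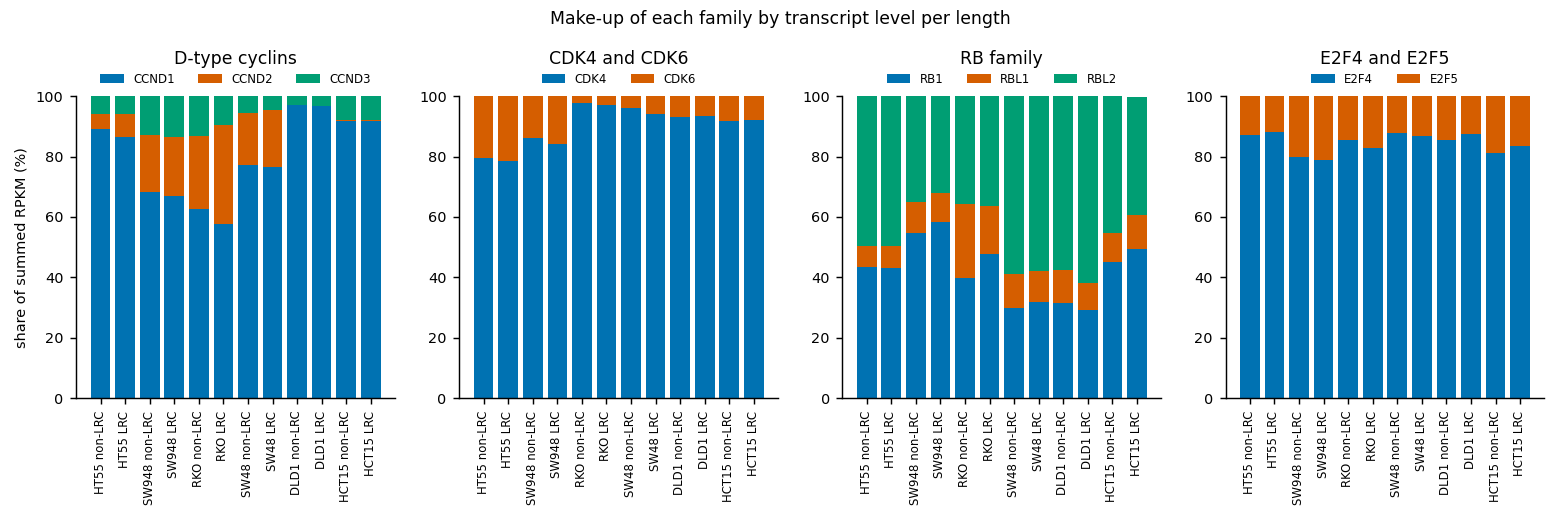
Share of each family's summed RPKM (%, y axis) given by each member in non-LRCs and LRCs of the 6 lines (x axis; mean of 4 replicates). CCND2 is a visible part of the D-type cyclins in RKO, SW48, SW948 and HT55 and near 0 in DLD1 and HCT15, and CDK6 is largest in HT55 and SW948.

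All 10 members differed between the lines in non-LRCs (edgeR quasi-likelihood F test, largest adjusted p = 7.16e-07), as did 98.3% of all genes tested. Along the order of line means, 24 of the 50 contrasts between neighbouring lines passed the threshold for the members, beside 41.9% for all genes. CCND2, the D-type cyclin with the largest range, was 164-fold higher in RKO than in DLD1 (log2 difference 7.36, SE 0.57, adjusted p = 1.11e-11). Its mean was 200 CPM in RKO and 179 CPM in SW48, which did not differ beyond their spread (adjusted p = 0.71), then 91.4 in SW948, 36.5 in HT55, 2.6 in HCT15 and 1.21 in DLD1. The last pair also did not differ detectably (adjusted p = 0.243), with 13 to 20 CCND2 reads per sample in DLD1 non-LRCs. HT55 was uneven, with 14.9, 95, 20.9 and 15.1 CPM in its non-LRC replicates. Replicate 2 stood far above the others there, and again in the LRCs (47.9, 91.4, 39.6 and 43.1 CPM).

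CCND1, the cyclin D1 gene, ran in the order DLD1 (660 CPM), SW48 (475), HCT15 (433), HT55 (356), RKO (307) and SW948 (195). Only SW48 and HCT15 among these neighbours did not differ (adjusted p = 0.294). CCND3 was highest in RKO at 78.1 CPM and differed there from HCT15 (log2 difference 0.81, SE 0.15). The CCND3 means of HCT15 (44.2 CPM), SW948 (44.1) and SW48 (37.4) did not differ from one another as neighbours, nor did HT55 (27.5) from DLD1 (23.5).

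CDK4 was highest in RKO at 364 CPM, 2.51-fold above SW48, and differed from SW948 at 218 CPM (log2 difference 0.73, SE 0.08). The CDK4 means of DLD1 (171 CPM), HCT15 (155), HT55 (144) and SW48 (145) had no neighbours that differed. CDK6, which binds the same cyclins, had another order: HT55 (144 CPM) and SW948 (137) did not differ, and both lay far above HCT15 (53.9), DLD1 (49.4), RKO (33) and SW48 (24.1). The step from SW948 to HCT15 was 1.35 on the log2 scale (SE 0.11, adjusted p = 2.82e-11). RKO thus had the highest CDK4 level and the second lowest CDK6 level.

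RB1 was highest in SW948 (122 CPM) and HT55 (104), which did not differ, and lowest in SW48 (42.1), a range of 2.91-fold. RBL1 was highest in RKO (35.9 CPM), 0.78 on the log2 scale above SW948 (SE 0.15, adjusted p = 3.26e-05). Below RKO no neighbours differed for RBL1, with means from 20.8 CPM in SW948 to 14.4 CPM in SW48. RBL2 ran the other way for RKO: HT55 and DLD1 (both 149 CPM) were the highest and RKO (71.9) the lowest, 2.13-fold below HT55. E2F4 was highest in RKO (121 CPM) and lowest in HCT15 (58.2), and E2F5 was highest in RKO (34 CPM) and SW948 (32.2), which did not differ.

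**Figure D2:**
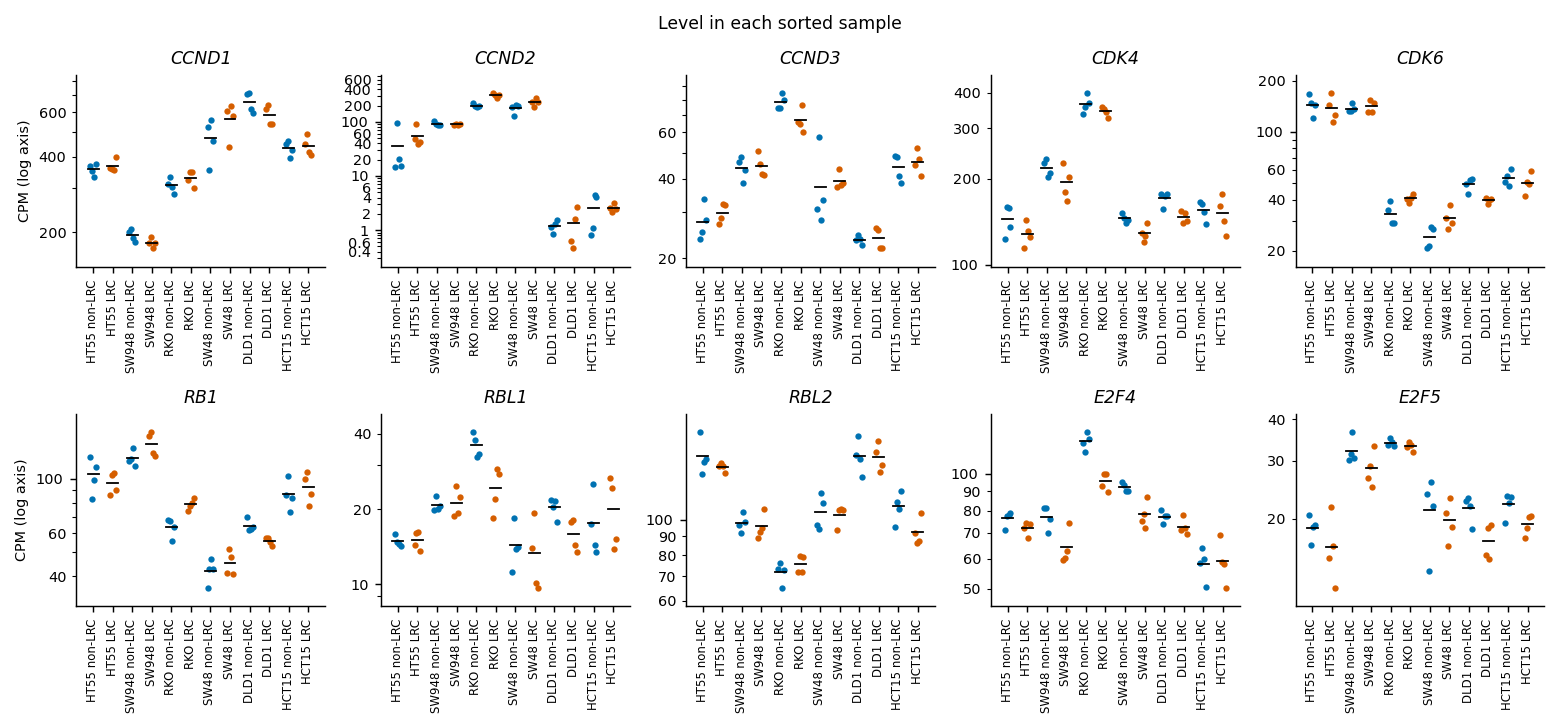
Level of each member in each of the 48 sorted samples (CPM, log y axis) by line and population (x axis); blue points are non-LRC replicates, orange points LRC replicates, and bars their means. The steps between lines are larger than those between LRCs and non-LRCs for most members; CCND2 spans from about 1 CPM in DLD1 to over 100 CPM in RKO and SW48.

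Across the 6 lines, 3 of the 10 members differed between LRCs and non-LRCs, all of them lower in LRCs, beside 22.9% of all genes in either direction and 10.7% lower. CDK4 fell by 0.14 on the log2 scale (SE 0.04, adjusted p = 0.00336), E2F4 by 0.17 (SE 0.04, adjusted p = 0.000461) and E2F5 by 0.18 (SE 0.05, adjusted p = 0.0124). These are changes to 0.906, 0.89 and 0.886 of the non-LRC level. The CDK4 and E2F5 estimates were below 0 in 6 of 6 lines and the E2F4 estimate in 5 of 6, HCT15 being at 0.03. These genes were picked by the fit of the same samples, so their signs by line are no further support. Some estimates were within their SE of 0, such as CDK4 in HCT15 (-0.02, SE 0.11) and E2F5 in RKO (-0.06, SE 0.07). The share of all genes with such signs was not computed. The median log2 fold change of the members was -0.02, beside 0.01 for all genes. The E2F5 call ended without replicate 1 of each group (adjusted p = 0.117), without replicate 3 (0.118) or without DLD1 (0.0739), and the CDK4 call ended without replicate 3 (0.0535). Same-numbered LRC and non-LRC samples deviated together in HT55, SW48, DLD1 and HCT15 and not in SW948 and RKO. With the numbers as a block in all 6 lines, CCND2 was also called, higher in LRCs by 0.43 on the log2 scale (adjusted p = 0.00236). That block gave calls for 25.5% of all genes and also paired SW948 and RKO. Without it CCND2 was at 0.35 (SE 0.15, adjusted p = 0.0847). CCND2 was also called without replicate 2 (0.45, adjusted p = 0.00685) and without HT55 (0.29, adjusted p = 0.0464). CCND1 (0.02), CCND3 (0.01), CDK6 (0.03), RB1 (0.06), RBL2 (-0.06) and RBL1 (-0.14, SE 0.08, adjusted p = 0.23) did not pass.

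**Figure D3:**
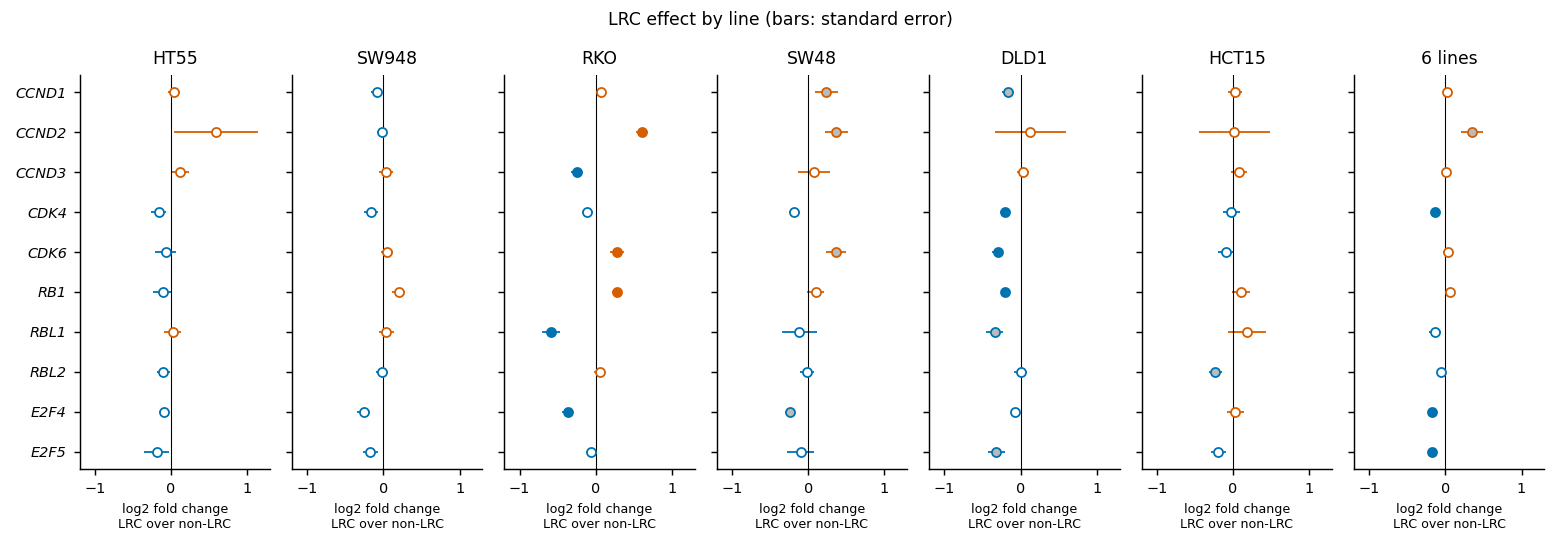
Log2 fold change of LRCs over non-LRCs (x axis, bars standard errors) for each member (y axis) by line and across the 6 lines. Orange is above 0 and blue below; filled points have an adjusted p under 0.05, grey filled points only with the replicate block, and open points in neither. RKO has filled points on each side of 0, at 0.61 for CCND2 and -0.59 for RBL1, and DLD1 only below 0.

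RKO had the most changes: 6 of the 10 members passed, 3 in each direction, beside 41.5% of all genes. CCND2 was at 220, 196, 188 and 197 CPM in the non-LRC replicates and at 339, 317, 273 and 318 CPM in the LRC replicates. The groups did not overlap, and CCND2 rose 1.53-fold (log2 0.61, SE 0.08, adjusted p = 2.12e-05). Here and below, a lack of overlap in a called gene follows in part from the call and is no further support. The share of all genes without overlap was not computed. CCND3 was at 74.1, 74.1, 84.6 and 79.6 CPM in non-LRCs and at 66, 64.6, 76.4 and 60 CPM in LRCs. One LRC sample of CCND3 lay inside the non-LRC range, and the gene fell by 0.25 on the log2 scale (SE 0.08, adjusted p = 0.0228). CCND2 therefore made up 32.7% ± 3.11 of the D-type cyclin level in RKO LRCs. The kinase gene CDK6 was at 34.6, 39.1, 29.3 and 29 CPM in non-LRCs and at 40.5, 38.4, 41 and 43.1 CPM in LRCs, a rise of 0.28 (SE 0.09, adjusted p = 0.0238) with 1 LRC sample under the highest non-LRC sample. The CCND3 call was lost without LRC replicate 2, LRC replicate 4, non-LRC replicate 3 or non-LRC replicate 4 (adjusted p 0.059 to 0.0894). The CDK6 call was lost without LRC replicate 4, non-LRC replicate 3 or non-LRC replicate 4 (adjusted p 0.0691 to 0.0931). With all 48 sorted samples sharing 1 estimate of spread, the calls of CCND2 (0.138), CCND3 (0.19) and CDK6 (0.0511) in RKO were lost.

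The pocket proteins moved apart in RKO. RB1 was at 67.9, 67, 55.8 and 63.8 CPM in non-LRCs and at 74, 77.5, 79.7 and 83.6 CPM in LRCs, with no overlap (log2 0.28, SE 0.07, adjusted p = 0.00639). RBL1 was at 40.5, 37.8, 32.2 and 33.2 CPM in non-LRCs and at 18.4, 22, 28.8 and 27.6 CPM in LRCs, also with no overlap and in the opposite direction (log2 -0.59, SE 0.12, adjusted p = 0.00126). RBL2 did not pass, at 71.9 ± 4.66 CPM and 75.5 ± 4.3 CPM (SD, n = 4; log2 0.05, SE 0.07). E2F4, the factor that RBL1 and RBL2 hold, fell from 120, 114, 128 and 123 CPM to 92.7, 100, 100 and 89.4 CPM (log2 -0.37, SE 0.07, adjusted p = 0.000765). No E2F4 value of an LRC sample reached a non-LRC sample. E2F5, CDK4 and CCND1 did not pass in RKO (log2 -0.06, -0.11 and 0.07).

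In DLD1, 3 members passed and all were lower in LRCs, beside 14.6% of all genes in either direction and 7.89% lower. CDK4 was at 176, 156, 174 and 177 CPM in non-LRCs and at 154, 140, 152 and 142 CPM in LRCs (log2 -0.21, SE 0.06, adjusted p = 0.0327). CDK6 was at 49.4, 43.4, 52.1 and 52.8 CPM against 40.9, 37.8, 40 and 40.5 CPM (log2 -0.30, SE 0.07, adjusted p = 0.0157). RB1 was at 69.6, 61.8, 62.5 and 63.6 CPM against 57.2, 57.1, 55.1 and 52.9 CPM (log2 -0.20, SE 0.05, adjusted p = 0.031). None of these 3 genes had an LRC sample inside the non-LRC range, but they were picked by the test on the same samples. The separation is therefore no further support. The CDK4 call was lost without non-LRC replicate 1, 3 or 4 or LRC replicate 2 or 4 (adjusted p 0.0728 to 0.097), and the RB1 call without non-LRC replicate 1 or 4 or LRC replicate 1, 3 or 4 (adjusted p 0.0509 to 0.0957). With all 48 sorted samples in 1 fit, none of the 3 passed (0.102 to 0.26). With the replicate number as a block 6 members passed, all lower in LRCs, beside 33.8% of all genes. The additional ones were CCND1 (log2 -0.16, adjusted p = 0.00168), RBL1 (-0.34, adjusted p = 0.00249) and E2F5 (-0.33, adjusted p = 0.00557). RBL1 was at 21.8, 20.3, 21.5 and 17.7 CPM in non-LRCs and at 17.8, 18.1, 14.3 and 13.4 CPM in LRCs, so each LRC sample lay below the non-LRC sample of its number. RBL1 passed without a block when LRC replicate 2 (adjusted p = 0.0457) or non-LRC replicate 4 (0.0463) was left out, and E2F5 without non-LRC replicate 4 (0.0413) or LRC replicate 4 (0.05). RBL1 and E2F5 also passed in DESeq2 (0.0381 and 0.0401) and with no filter on low counts (0.031 and 0.0296).

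In SW48 no member passed in edgeR, beside 0.796% of all genes, or in DESeq2, beside 2.74%. An unadjusted p under 0.05 was found for 4 members and 13.1% of all genes. With the replicate block, which the SW48 numbers bear, 4 passed beside 9.69% of all genes. CCND2 was at 190, 129, 203 and 195 CPM in non-LRCs and at 234, 185, 274 and 236 CPM in LRCs, higher in each same-numbered pair (blocked log2 0.38, adjusted p = 0.00564). CCND1 was at 526, 354, 559 and 463 CPM against 604, 435, 635 and 578 CPM, again higher in each pair (0.25, adjusted p = 0.0305). CDK6 was higher by 0.37 (adjusted p = 0.0295). E2F4 was lower by 0.24 (adjusted p = 0.0468), with 95, 93.3, 90.2 and 90.2 CPM in non-LRCs and 75.4, 78.5, 72.2 and 86.7 CPM in LRCs, which did not overlap.

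HCT15 had no member past the threshold in edgeR, beside 0.977% of all genes, or in DESeq2, beside 3.79%. It had 1 member with an unadjusted p under 0.05, beside 17.2% of all genes. That gene was RBL2, at 95.5, 112, 107 and 120 CPM in non-LRCs and at 91.7, 86.1, 87.3 and 104 CPM in LRCs, which passed with the replicate block (log2 -0.23, adjusted p = 0.0202; 21.3% of all genes). HT55 had no member past the threshold in edgeR, where no gene of 13391 passed (0%), or in DESeq2, where 37 genes did (0.276%). No member had an unadjusted p under 0.05 there, beside 7.51% of all genes. In HT55, CCND2 had a log2 difference of 0.59 (SE 0.55), and of 0.96 with the replicate block (adjusted p = 0.144). It was 1.71 without non-LRC replicate 2 (adjusted p = 0.00347) and 0.24 without LRC replicate 2 (adjusted p = 0.928), the high samples of each population, and 0.33 to 0.73 without any other library. SW948 also had no member past the threshold in edgeR, where no gene of 13674 passed (0%), or in DESeq2, where 244 genes did (1.78%). It had 2 members with an unadjusted p under 0.05, beside 17.2% of all genes. These were RB1 (log2 0.20, SE 0.09) and E2F4 (-0.26, SE 0.09), and E2F4 passed without LRC replicate 4 (-0.33, adjusted p = 0.0121).

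The LRC effect of 1 member differed between lines in the test of the line by population terms, beside 14.3% of all genes. That was CDK6 (adjusted p = 0.0146), with log2 fold changes of 0.28 in RKO and 0.36 in SW48 against -0.30 in DLD1. The CDK6 call ended without replicate 1 (adjusted p = 0.207), 3 (0.112) or 4 (0.12) of every group, without RKO (0.13) or without DLD1 (0.141). With the replicate block in every line, SW948 and RKO included, 6 members passed, beside 33.6% of all genes. They were CDK6, CCND1 (adjusted p = 0.00095), CCND2 (0.0178), RB1 (0.0204), RBL1 (0.00784) and E2F4 (0.035). Without replicate 2 of every group, CCND2 (0.00392) and RB1 (0.0393) passed. RB1 also passed without SW48 (0.0459) or HCT15 (0.0469) and E2F4 without SW948 (0.0479). DESeq2 also called RB1 (0.0436) and E2F4 (0.041), and RBL1 passed with no filter on low counts (0.037). CDK4 and E2F5, which fell across the lines, had adjusted p-values of 0.819 and 0.801 for a difference between lines.

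RBL1 was set beside the S-phase genes in each line. The list of E2F target genes of S phase (17 genes, among them the MCM helicase subunits, PCNA and the nucleotide enzymes TYMS and RRM2) had a median log2 fold change of -0.71 in RKO, where RBL1 was at -0.59. In DLD1 the list median was -0.55 and RBL1 was at -0.34, and in SW48 they were -0.35 and -0.12. In HT55, SW948 and HCT15 the list medians were 0.04, -0.03 and 0.06, and RBL1 was at 0.02, 0.04 and 0.19. In DLD1 and SW48 RBL1 lay at the weak end of the list, whose estimates ended at -0.32 and -0.12, and in SW948 its sign was opposite to the list median. Whether RBL1 differed from the list was not tested. The all-gene medians were between -0.01 and 0.02. In RKO all 17 list genes passed as lower and in DLD1 16 did, beside 41.5% and 14.6% of all genes in either direction. None passed in HT55, SW948, SW48 or HCT15, where 0%, 0%, 0.796% and 0.977% of all genes did. With the replicate block 12 of the 17 passed as lower in SW48, beside 9.69% of all genes in either direction. In HCT15 3 of the 17 passed as higher with the block, beside 21.3% of all genes in either direction. Over the 48 sorted samples with the line mean removed, RBL1 had a Pearson r of 0.83 with the mean of this list and 0.83 with the mean of 9 mitotic genes. The same r with the S-phase mean was 0.60 for CCND3, 0.56 for E2F4, 0.48 for CDK4, 0.14 for RB1 and -0.22 for RBL2. These correlations describe samples that share lines and libraries.

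**Figure D4:**
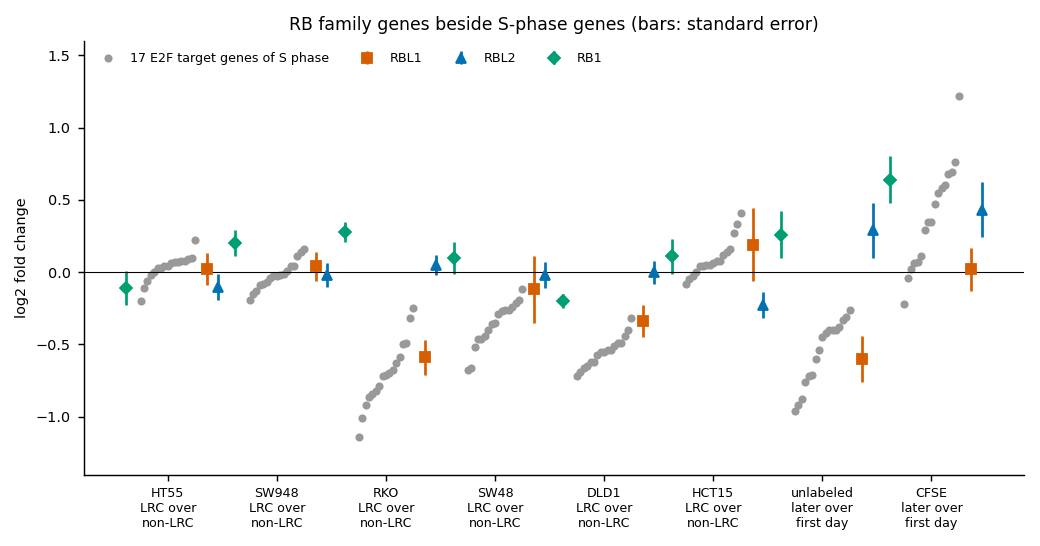
Log2 fold change (y axis) of 17 E2F target genes of S phase (grey points, 1 per gene) and of RBL1, RBL2 and RB1 (bars standard errors) in the 6 lines and the DLD1 control days (x axis). RBL1 lies within the spread of the grey points in the 6 lines, at its upper edge in SW48 and DLD1, and RB1 and RBL2 are above them in RKO, at 0.28 and 0.05.

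The genes with the most similar pattern over the 48 sorted samples (Pearson r of log2 CPM, line mean removed) were SMC4 (r = 0.917) and NCAPG2 (0.906) for RBL1, both condensin subunits. For the cyclins they were MICAL2 (0.791) and RDH10 (0.751) for CCND1, OSR2 (0.811) and SMTNL2 (0.809) for CCND2, and PLIN3 (0.863) and SFN (0.844) for CCND3. CDK4 ran with DMAC1 (0.833), and CDK6 with TTPAL (0.836) and PTPRG (0.779). RB1 ran with CUL4B (0.838) and BLOC1S6 (0.823), and RBL2 with IFT74 (0.717) and PCNX4 (0.713). E2F4 ran with DAZAP1 (0.842) and TOMM40 (0.826), and E2F5 with PRMT3 (0.756) and SFT2D3 (0.74). No member had another member as its closest gene.

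The other genes of the pathway were counted across the 6 lines, beside the same 22.9% of all genes in either direction. Of 7 CDK inhibitors, 4 rose in LRCs and none fell (list median 0.33): CDKN2B, an INK4 inhibitor of CDK4 and CDK6, by 0.99 on the log2 scale (SE 0.13, adjusted p = 2.89e-07), CDKN1A (p21) by 0.82 (SE 0.12) and CDKN2D, another INK4 gene, by 0.39 (SE 0.09). Of 17 S-phase genes, 11 fell and none rose (median -0.26), led by MCM3 (-0.24, SE 0.05), POLA1 (-0.23, SE 0.05) and MCM2 (-0.28, SE 0.07). Of 9 mitotic genes, CDC20 (-0.32, SE 0.10) and CCNB2 (-0.34, SE 0.12) fell and none rose (median -0.30). By line, the mitotic list median was -0.54 in RKO, -0.66 in SW48 and -0.63 in DLD1. It was 0.07 in HT55, 0.00 in SW948 and 0.35 in HCT15, where all 9 estimates were above 0. With the replicate block, all 9 passed as lower in SW48 and in DLD1, and 7 passed as higher in HCT15. The shares of all genes called in either direction with that block were 9.69%, 33.8% and 21.3%, in the same order. Of 8 other E2F and DP genes, the DP partner TFDP1 fell by 0.19 (SE 0.03) and the activator E2F1 fell by 0.26 (SE 0.09), and none rose (median -0.05). By line, TFDP1 was between -0.35 and -0.11. E2F1 was at -0.99 in RKO, -0.41 in SW48 and -0.36 in DLD1, and at 0.02 in HT55, -0.03 in SW948 and 0.20 in HCT15. Of 7 G1 kinase partners only the phosphatase CDC25A passed, falling by 0.26 (SE 0.07; median -0.09).

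Lists tied to RBL2 and to cyclin turnover moved in each direction. Of the 7 measured MuvB genes and partners, the DNA-binding subunit LIN54 (0.19, SE 0.06) and the kinase DYRK1A (0.13, SE 0.04) rose, and RBBP4 (-0.15, SE 0.03) and MYBL2 (-0.44, SE 0.11) fell, with a list median of 0.00. MYBL2 was at -1.27 in RKO, -1.02 in SW48 and -0.52 in DLD1, and between -0.13 and 0.01 in the other lines. Of 7 genes of cyclin D and p27 turnover, the cyclin D ubiquitin ligase adaptor AMBRA1 (0.12, SE 0.03) and the kinase GSK3B (0.14, SE 0.04) rose, while SKP2, which marks p27 for degradation, fell by 0.34 (SE 0.06), and the median was 0.03. GSK3B was at 0.41 in RKO and 0.32 in SW48, and between -0.02 and 0.10 in the other lines. Of the 8 epithelium markers VIL1 fell (-0.30, SE 0.10; median 0.04), and of the 4 tested markers of other cell types CD68 rose (0.77, SE 0.14; median 0.33).

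The DLD1 controls compared time in culture and dye. The 4 contrasts share their 4 groups, so each is given by its own values. In unlabeled cells, 2 of the 10 members differed between the later day and day 1, both lower, beside 25.5% of all genes. RBL1 was at 33.2, 30, 38.3 and 21.2 CPM on day 1 and at 18.1, 22.4, 21.2 and 19.3 CPM on the later day (log2 -0.60, SE 0.16, adjusted p = 0.0147). Day 1 replicate 4 lay inside the later range. E2F4 was at 84.4, 90.5, 68.7 and 58.7 CPM and then at 43.9, 57.5, 54.2 and 66.8 CPM, which overlapped (log2 -0.44, SE 0.14, adjusted p = 0.0314). The RBL1 call was lost without day 1 replicate 1 (adjusted p = 0.0551) or 3 (0.0598). The E2F4 call was lost without replicate 1, 2 or 3 of either unlabeled group (0.0553 to 0.117). The S-phase list had a median of -0.45 in this contrast, with 8 genes lower. CCND2 passed without day 1 replicate 4 (log2 1.49, adjusted p = 0.00303; 0.53 with it). With replicate 4 left out of all 4 control groups, CCND2 (0.00785), RB1 (log2 0.46, adjusted p = 0.0258) and E2F5 (0.54, adjusted p = 0.0332) passed. The RBL1 call was lost without replicate 1, 2 or 3 of all groups (0.0995 to 0.165), as was the E2F4 call (0.119 to 0.264). In the same contrast 4 of 8 epithelium markers were higher and COL1A1 was lower (-0.94, SE 0.30), and reads on no gene were 8.96% to 13.6% on day 1 and 5.19% to 8.35% later. Their part in the result was not tested.

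In CFSE-labeled cells, 4 members were higher on the later day, beside 39.3% of all genes in either direction. In the same contrast 6 of 8 epithelium markers were higher, among them CDX2 (log2 1.55, SE 0.35), and both tested markers of other cell types were lower, CD68 at -1.56 (SE 0.33) and COL1A1 at -1.39 (SE 0.31). Reads on no gene were 12.2% to 14.8% on day 1 and 5.2% to 7.31% later, and the part of these shifts in the result was not tested. CCND2 was at 0.192, 0.386, 0.13 and 0.292 CPM on day 1 and at 0.72, 0.858, 1.31 and 1.02 CPM later, without overlap (log2 1.90, SE 0.55, adjusted p = 0.0129). That rests on 17 reads in the 4 samples of day 1 and 66 in those of the later day. RB1 was at 66, 58, 73.1 and 82.1 CPM and then at 114, 126, 100 and 105 CPM, without overlap (log2 0.64, SE 0.16, adjusted p = 0.00599). CCND3 rose by 0.55 (SE 0.18, adjusted p = 0.0209), from 51.6, 54.3, 46.7 and 50.2 CPM to 95, 93.2, 57.8 and 60.5 CPM. CDK4 rose by 0.44 (SE 0.16, adjusted p = 0.0351), from 120, 142, 183 and 193 CPM to 251, 257, 182 and 199 CPM. For CCND3 and CDK4 the later replicates 1 and 2 lay well above replicates 3 and 4. The CCND3 call was lost without CFSE day 1 replicate 2 or 3 or later replicate 1 or 2 (adjusted p 0.0506 to 0.0778). The CDK4 call was lost without replicate 1 or 2 of either CFSE group or the later unlabeled replicate 1 (0.0735 to 0.176), with RLE size factors (0.0597), without TMM (0.143) and with at least 10 counts in every sample (0.0954). RBL1 had a log2 difference of 0.02 (SE 0.15) while 8 genes of the S-phase list were higher (list median 0.35). Same-numbered CFSE samples of the days deviated together. The replicate block also covered the unlabeled controls, whose numbers did not meet the pairing cutoff. With it 5 members passed beside 42.3% of all genes, the additional one being RBL2 (0.46, adjusted p = 0.0237). Without the block RBL2 (0.43, adjusted p = 0.0861) passed without CFSE day 1 replicate 3 (0.57, 0.035) or 4 (0.56, 0.0372). E2F4 (-0.35, adjusted p = 0.0551) passed without unlabeled day 1 replicate 2 (0.0477) or 4 (0.0186) or later unlabeled replicate 1 (0.014) or 4 (0.0416), and also in DESeq2 (0.0287), with RLE size factors (0.0381), without TMM (0.0258) and with at least 10 counts in every sample (0.0204).

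On day 1, CFSE-labeled cells differed from unlabeled ones in 2 members, beside 21.8% of all genes. Markers moved as well: CD68 was higher with dye (log2 2.20, SE 0.34), and 4 of 8 epithelium markers were lower, VIL1 (-2.34), LGALS4 (-2.10), CDX2 (-1.32) and KRT19 (-0.42). Reads on no gene were 12.2% to 14.8% with dye and 8.96% to 13.6% without, and the part of these shifts in the result was not tested. CCND1 was at 372, 378, 371 and 435 CPM unlabeled and at 495, 518, 472 and 477 CPM with dye, without overlap (log2 0.36, SE 0.11, adjusted p = 0.0255). RBL2 was at 82.1, 78.7, 87.6 and 123 CPM unlabeled and at 44.6, 40.5, 76 and 75.8 CPM with dye, without overlap and lower (log2 -0.63, SE 0.19, adjusted p = 0.029). The CCND1 call was lost without unlabeled replicate 1, 2 or 3 or CFSE replicate 1 or 2 (0.0577 to 0.0736) and with no filter on low counts (0.143), and the RBL2 call without CFSE replicate 1 or 2 or unlabeled replicate 4 (0.0864 to 0.117). CCND2 (log2 -1.59, adjusted p = 0.0513) passed without unlabeled replicate 1 (0.0398), 2 (0.0419) or 3 (0.0288), in DESeq2 (0.036), with RLE size factors (0.0497) and with no filter on low counts (0.0396). It rests on 17 reads with dye and 57 without.

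On the later day the dye contrast also had 2 members, beside 5.13% of all genes. None of the epithelium or other cell type markers passed in it (KRT19 was nearest, at -0.48, SE 0.14, adjusted p = 0.0558). CCND3 was at 43.4, 61, 42.2 and 42.2 CPM unlabeled and at 95, 93.2, 57.8 and 60.5 CPM with dye (log2 0.69, SE 0.18, adjusted p = 0.0361), where unlabeled replicate 2 lay inside the dye range. RBL1 was at 18.1, 22.4, 21.2 and 19.3 CPM unlabeled and at 35.4, 34.6, 30.4 and 28.8 CPM with dye, without overlap (log2 0.67, SE 0.16, adjusted p = 0.0261). The S-phase list had a median log2 difference of 0.76 in the same contrast. Both calls were lost without CFSE replicate 1 or 2 or unlabeled replicate 1, 3 or 4, with adjusted p from 0.0901 to 0.155 for CCND3 and from 0.0621 to 0.111 for RBL1. E2F4 (log2 0.41, adjusted p = 0.0902) passed without unlabeled day 1 replicate 4 (0.0282). The day effect differed with the dye for no member in edgeR, beside 0.999% of all genes, or in DESeq2, beside 4.29%. An unadjusted p under 0.05 was found for 2 members and 17% of all genes. RBL1 had a difference of 0.62 there (SE 0.22, adjusted p = 0.164) and passed without unlabeled day 1 replicate 4 (0.81, adjusted p = 0.0174).

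**Figure D5:**
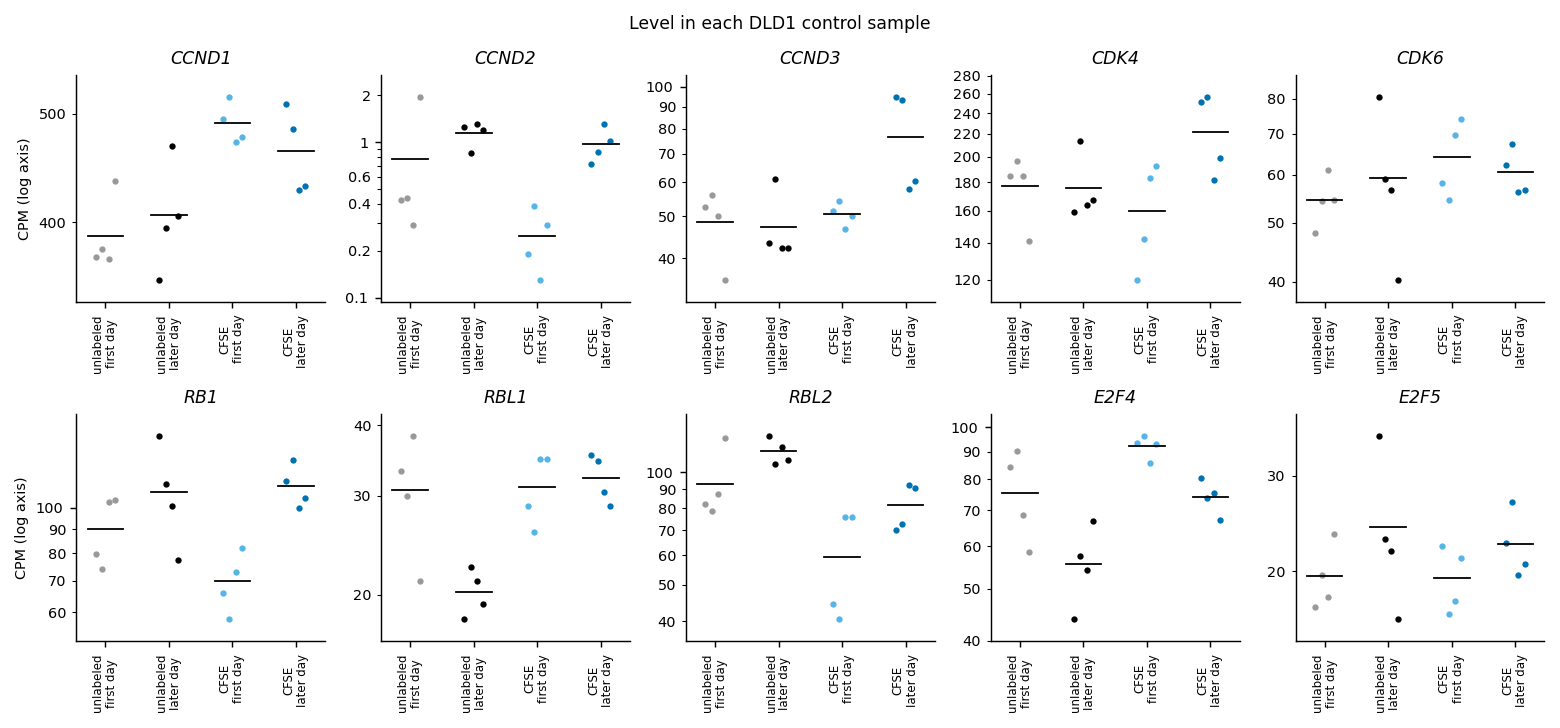
Level of each member in each of the 16 DLD1 control samples (CPM, log y axis) by dye and day (x axis; first day is day 1), with bars at the means. RBL1 is lowest in unlabeled cells of the later day, at 18.1 to 22.4 CPM, and CCND1 is higher with dye on day 1, at 472 to 518 CPM.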

How the data were processed

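RNA was sequenced from 48 sorted and 16 control samples of established colorectal cancer lines. The authors deposited 1 table of raw counts per sample, the number of reads on each of 54127 Ensembl genes, and the submitters' processing notes name hg19, TopHat, HTSeq and DESeq. Versions and the strand setting were not given in the sources used here. Reads assigned to no gene (5.19% to 14.8%) and ambiguous reads (1.52% to 2.21%) were left out. Depth was 12237225 to 20913455 reads on genes per sample, so all members but CCND2 had at least 112 reads in every sample.

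Counts were tested with edgeR 4.0.16 (R 4.3.3; TMM, quasi-likelihood F test), on genes that reached 10 counts in 4 or more samples, with Benjamini-Hochberg adjustment over all tested genes and a threshold of 0.05. Each line was fitted alone, the 48 sorted samples together, the 24 non-LRC samples for the order of lines, and the 16 controls as 4 groups. Levels are TMM-scaled CPM, also per kilobase of exon union (RPKM). The scripts were tested on simulated data. Alternatives were DESeq2 1.42.0, RLE factors, no TMM, other filters, the replicate number as a block, 1 fit of all sorted samples, a prior count of 0.5 in place of 2, and leaving out libraries, replicate numbers or lines. Python 3.11.15, pandas 2.3.3 and matplotlib 3.10.9 were used for summaries and plots.

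The members and gene lists were chosen with earlier results of these data known. All members are named. Of the lists, up to 3 genes per direction with the smallest p across lines among those past the threshold are named, and for each member the 2 genes with the highest Pearson r, of which 1 for CDK4 is not reported here. LIN37 and PECAM1 had no matching identifier. As a check of pairing, the deviations of same-numbered LRC and non-LRC samples from their group means correlated at 0.141 to 0.396 in HT55, 0.128 to 0.46 in SW48, 0.154 to 0.334 in DLD1 and 0.24 to 0.432 in HCT15, at 0.124 to 0.239 between the days of CFSE-labeled controls, and at 0.011 to 0.118 in SW948 and -0.0686 to 0.0148 in RKO. The number was taken to pair the samples where every correlation was above 0.1, which was so in none of the other control contrasts. The own number gave the highest correlation throughout SW48 and for all but replicate 1 in HT55 and HCT15. In DLD1 that held for replicates 2 and 3, in SW948 for replicate 4 and in RKO for none. Among the controls it held for replicates 1 and 3 between the CFSE days. Between dyes it held for all but replicate 3 on day 1 and for replicates 2 and 3 on the later day. Gene positions are on GRCh37, and promoter sequences are from RefSeq on GRCh38.p14.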

Additional observations from a re-analysis of the deposited data

Results flagged for a closer look

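In 11 of 160 groups of 4 samples, 1 sample lay so far from the others that its gap exceeded Dixon's critical value. Chance alone flags about 1 in 20 such groups, or 8 of 160. CCND2 stood out in replicate 2 of both HT55 populations, at 95 CPM in non-LRCs and 91.4 CPM in LRCs, and in unlabeled DLD1 cells of day 1 at 1.96 CPM in replicate 4. The same unlabeled day 1 library was also high for CCND1, at 435 CPM. CCND1 was high in HT55 LRC replicate 4 at 399 CPM. CCND3 was high in replicate 2 of the later unlabeled DLD1 cells, at 61 CPM, and in SW48 LRC replicate 2, at 43.7 CPM. CDK4 was high in the same later unlabeled library, at 214 CPM, and low in DLD1 non-LRC replicate 2, at 156 CPM. RBL2 was low in SW48 LRC replicate 1, at 93.4 CPM, and E2F4 was low in HT55 non-LRC replicate 1, at 71.2 CPM.

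The LRC effect on CDK6 differed between lines in the test of the line by population terms (edgeR adjusted p = 0.0146), with log2 fold changes of 0.28 in RKO, 0.36 in SW48 and -0.30 in DLD1.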

How the results depend on the processing

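No member changed direction between settings where it was called in either. Of 267 counts of called members under alternatives, 212 stayed within 1.5 times the reported count and 55 did not. Of 2781 values of single members, 2625 kept their side of the threshold, 60 gained and 96 lost a call. Among the 2625, 110 changed sign while called in neither setting. With all 48 sorted samples in 1 fit, 3 members were called in RKO in place of 6 and 0 in DLD1 in place of 3. DLD1 had 5 called members with DESeq2 (16% of all genes) and 5 with no filter on low counts (7.71%). Members whose LRC effect differed between lines numbered 3 with DESeq2 (20.5% of all genes) and 2 with no filter (7.86%), in place of 1 (14.3%). Leaving out a line gave 2 without SW948, 2 without SW48, 2 without HCT15, 0 without RKO and 0 without DLD1. For the single fit and for leaving out a line, the share of all genes called was not compared. Those counts therefore do not show whether the members or all genes gained or lost calls. The causes were not tested.

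With the replicate number as a block, the counts were 4 in SW48 in place of 0 and 6 in DLD1 in place of 3. They were 1 in HCT15 in place of 0 and 6 for a difference between lines in place of 1. The shares of all genes called with the block were 9.69%, 33.8%, 21.3% and 33.6%, in the same order. In the controls, only the CFSE-labeled samples of the 2 days met the pairing cutoff, with every correlation above 0.1. The other contrasts did not meet it (correlations -0.225 to 0.404). There the block added RBL2 between dyes on the later day (-0.51, edgeR adjusted p = 0.0434). The block changed no other call than these and those in the report.

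Leaving out 1 library or replicate number at a time gave 0 to 1 called members in HT55, 0 to 1 in SW948, 4 to 6 in RKO, 0 to 0 in SW48, 1 to 3 in DLD1, 0 to 0 in HCT15, 1 to 4 across lines, 0 to 3 for a difference between lines and 10 to 10 between lines in non-LRCs. In the controls it gave 0 to 5 between days unlabeled, 1 to 5 between days with dye, 0 to 2 between dyes on day 1, 0 to 3 on the later day and 0 to 1 for the day by dye term. The share of all genes called was not compared for these fits, so the counts do not show whether the members alone changed. Leaving out single control libraries was chosen after seeing the data. With a replicate number left out of all control groups, the calls between days with dye of CCND2 (without 1 or 3, adjusted p = 0.0593 and 0.0754) and RB1 (without 2, 0.122) were also lost. CCND2 in DLD1 rested on few reads, 2 to 37 per control sample, which limits its precision.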

Other observations

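The sorted DLD1 samples and the DLD1 controls were not tested against each other, because only the former were sorted. CCND1 group means were 584 and 660 CPM in sorted samples and 389 to 490 CPM in controls. CCND3 means were 23.5 and 23.8 CPM in sorted samples and 47.2 to 76.7 CPM in controls, and RBL2 means were 148 and 149 CPM against 59.2 to 114 CPM.

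Among the members themselves, over the 48 sorted samples with the line mean removed, the highest Pearson r was 0.605 between CDK4 and E2F4, followed by 0.52 between RBL2 and E2F5. The lowest were -0.514 between CCND3 and E2F5 and -0.502 between CDK6 and E2F4. These samples share lines and libraries, so the values are a description.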
